A study of Drosophila melanogaster with 9 samples.

Results

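The subject here is a comparison inside an ageing series: brains of middle-aged flies (30d) set against both younger (3d) and older (60d) brains. For each gene the mean of the 30d arrays was contrasted with the average of the 3d mean and the 60d mean, and genes were picked out whose 3 arrays at 30d lay all above (peak genes) or all below (trough genes) all 6 arrays of the other ages. Of 13647 probe sets annotated with 1 gene symbol, 1117 (8.18%) were peaks and 692 (5.07%) were troughs. With the brightest probe set taken for each of 11982 genes, there were 942 peak genes (7.86%) and 677 trough genes (5.65%). These shares are the background against which every gene group below is read. The choice of members and the contrast use the same signals, so the contrast of a member describes it and supports nothing further.

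Total RNA from dissected Drosophila melanogaster brains was hybridised to 9 Affymetrix Drosophila 2.0 arrays, with 3 arrays for 30d brains and 3 for each of the ages 3d and 60d. Flies of all groups aged naturally on cornmeal molasses medium with dry yeast, RNA was taken with Trizol, and targets were made with the FL-Ovation biotin module. Strain, sex, number of brains per array and whether replicates came from separate collections are not given in the sources used here, so every p-value measures only the spread between these arrays. Values are linear signals, analysed as log2(signal + 1).

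Adult fly brain consists mostly of neurons, with glia that take up transmitters, clear debris and form the barrier to the haemolymph. The head fat body, haemocytes, trachea, muscle and cuticle lie against it and can stay attached in a dissection. Making, folding and degrading proteins are housekeeping tasks of all these cells, carried out by ribosomes and translation factors, chaperones and the proteasome.

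The tissue label was checked against neuronal and glial markers. The signal of elav, an RNA-binding protein of neurons, was 1380 to 1520 at 30d, against 1340 to 1450 at 3d and 1240 to 1440 at 60d. The glial homeobox gene repo measured 547 to 615 at 30d, against 622 to 822 at 3d and 589 to 726 at 60d. Markers of cholinergic and GABAergic neurons (ChAT, VAChT, Gad1), nSyb and the glial enzyme Gs2 were also bright at every age. The vesicular glutamate transporter VGlut was dim on all arrays, with signals of 24.1 to 44.6.

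Arrays of one age did not vary alike. The median standard deviation within an age was 0.116 at 30d, against 0.257 at 3d and 0.239 at 60d on the log2 scale. Median signals were 76.1 to 78.3 at 30d, against 60.6 to 67.6 at 3d and 66.5 to 77 at 60d, although every array had been scaled to a trimmed mean of 150. The log2 ratio of 3′ to 5′ signal for the GAPDH control, a measure of RNA integrity and amplification, was 1.97 to 2.07 at 30d, and the first 3d array stood apart at 5.03 against 1.58 to 2.03 on the other 3d arrays and 1.80 to 1.97 at 60d. In peak and trough genes the second 60d array usually lay nearest to the 30d arrays and the first farthest. The second 60d array was the nearest of the 6 others for 58.5% of peak genes and 59.4% of trough genes. The first 60d array was the highest of its age in 84.3% of trough genes, against 36.1% of all genes, and the lowest of its age in 82.8% of peak genes, against 45.7% of all genes.

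Few genes passed the test of the contrast. In limma over all 13647 probe sets, with Benjamini-Hochberg adjustment and a threshold of 0.05, 0 probe sets were called higher at 30d (0%) and 2 were called lower (0.0147%). An unadjusted p under 0.05 was reached by 3247 probe sets that stood higher and 1812 that stood lower. The adjusted p of the third was 0.0615, and 3686 had one under 0.1. The called genes were CG9512 and CG4000.

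CG9512, a member of the glucose-methanol-choline oxidoreductase family, had signals of 286, 238 and 185 at 30d, against 1430, 1530 and 1650 at 3d and 541, 328 and 383 at 60d. The 30d arrays were the lowest of the 9, and the 60d arrays lay much closer to them than the 3d arrays did. The contrast was -1.76 ± 0.19 (SE, log2 scale, n = 3 arrays per age) with a limma adjusted p of 0.0294. CG4000 was dim, with signals of 10.3, 9.07 and 7.99 at 30d, against 27.7, 31.0 and 36.6 at 3d and 14.5, 14.9 and 13.7 at 60d. It was also called lower, with a contrast of -1.15 ± 0.13 (SE) and a limma adjusted p of 0.0362. In both genes 30d was a low point between a high 3d level and an intermediate 60d level. The direction held with any 1 array left out, but the call did not: CG9512 was no longer called without the third 3d array, any one of the 30d arrays or the third 60d array, and CG4000 without these or without the first 60d array. Over the 9 such fits the limma adjusted p of CG9512 ran from 0.00881 to 0.198 and that of CG4000 from 0.0232 to 0.198.

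A stricter question is whether 30d differed from each age separately. With both pairwise limma tests passed in the same direction, 1 probe set was higher at 30d (0.00733%) and 1 was lower (0.00733%). The higher one was Ssl, a strictosidine synthase-like gene, with signals of 17.6, 16.7 and 18.4 at 30d, against 7.92, 8.07 and 8.81 at 3d and 9.13, 7.91 and 5.30 at 60d. The lower one was CG31200, with signals of 22.1, 21.2 and 23.8 at 30d, against 36.9, 38 and 40.1 at 3d and 69.0, 41.7 and 49.1 at 60d. Both genes were dim, and in both 30d did not overlap with the other ages. With single arrays left out, Ssl passed both tests in 2 of 9 fits (without the first or the second 60d array) and CG31200 in 1 (without the second). The comparison with 60d was the limiting one: 30d against 3d called 4349 probe sets, and 30d against 60d called 20, of which 1 was higher and 19 lower.

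The number of calls depended strongly on dim probe sets. When only the 9067 probe sets that exceeded a log2 signal of 5.71, the 40th percentile, on at least 3 arrays were tested, 688 were called higher (7.59%) and 748 lower (8.25%). A probe set could pass this filter through its 3 arrays at 30d alone. Or42a did so, with log2 levels of 5.83 to 5.92 at 30d and at most 5.54 on the other arrays. The higher calls with this filter therefore include genes that their 30d level let in, and they describe these arrays only. Of those called higher, 355 were peaks by their arrays and 333 were not. Of those called lower, 324 were troughs and 424 were not, so more than the members themselves entered: a gene that is low at both 30d and 60d can pass this contrast too. Leaving out the second 60d array in the unfiltered test gave 2401 higher and 1321 lower calls, and the number past both pairwise tests became 24 higher and 19 lower. Without the first 3d array there were 752 and 695 calls, and without the second 3d array 731 and 383.

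Peak and trough genes came from different parts of the signal range. The median level of peak genes was 5.57 on the log2 scale and that of trough genes 7.41, while that of all genes was 6.36. Among genes with a mean log2 level under 4, 11.6% were peaks and 0.09% were troughs. Among genes over 9, 2.01% were peaks and 7.09% troughs. For genes with a mean log2 signal over 6.67, the 60th percentile, 231 of 5259 were peaks (4.39%) and 482 were troughs (9.17%). After quantile normalization the peak share no longer declined with level: peaks then made up 1.75% of the dimmest and 5.94% of the brightest genes, and troughs 1.49% and 4.31%.

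**Figure D1:**
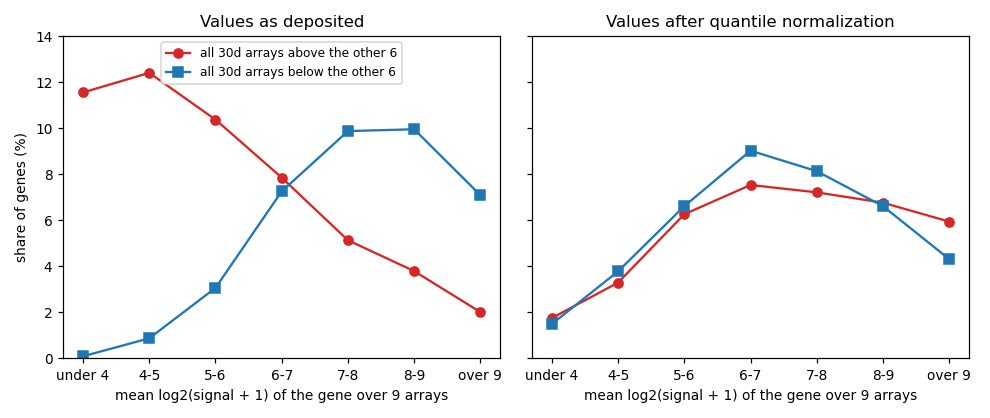
Share of genes (%, y axis) whose 30d arrays lay all above (red circles) or all below (blue squares) the other 6 arrays, by mean log2(signal + 1) of the gene over 9 arrays (x axis), for deposited values (left) and after quantile normalization (right). On the left peaks made up 12.4% of genes between 4 and 5 and 2.01% of those over 9, while on the right both shares stayed under 10% in every bin.

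The split between peaks and troughs followed the scaling. Of all probe sets that were peak or trough, 61.7% were peaks with deposited values, 51.3% after quantile normalization (830 peaks, 787 troughs) and 48.5% after centring each array on its median (855 peaks, 907 troughs). Of the members, 653 of the 1117 peaks and 547 of the 692 troughs kept their place after quantile normalization, and 813 and 644 after median centring. The median contrast of all 13647 probe sets was 0.13 with deposited values, 0.02 after quantile normalization and 0.04 after median centring. Changes of dim genes below are therefore read against a background that itself stood higher at 30d.

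Most differences were modest. The 30d mean lay at least 2-fold away from the nearer of the other ages in 11 peak genes and 2 trough genes, and at least 0.5 log2 units away in 319 and 114. The gap between the outermost 30d array and the nearest other array was under 0.05 in 285 peak and 230 trough genes, and over 0.3 in 57 and 21. The 60d mean was the nearer one in 788 of 942 peak genes and 506 of 677 trough genes, while it was nearer in 75.1% of all genes. Of the 106 peak genes with further probe sets, 31 had another that was also a peak and 1 had one that was a trough. Of 37 trough genes with further probe sets, 3 had another trough and 3 had a peak.

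The bright troughs with the largest difference to the nearer age included enzymes of energy and lipid metabolism, detoxifying enzymes and secreted proteins. In bulk tissue, fewer cells of a type and less RNA per cell cannot be told apart. Regucalcin, a calcium-binding protein listed here as a head fat body marker, had signals of 239, 210 and 251 at 30d, against 524, 542 and 558 at 3d and 770, 310 and 407 at 60d. Its contrast was -1.10 ± 0.24 (SE), with a limma adjusted p of 0.0615 over all probe sets and 0.0335 over those that passed the 40th percentile filter. CG9485, the glycogen debranching enzyme, had log2 levels of 6.21, 6.26 and 6.18 at 30d, against 7.50, 7.22 and 7.65 at 3d and 7.69, 6.40 and 7.15 at 60d. Every 30d array lay below every other array in both genes, with the second 60d array closest.

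Lipid enzymes were among them. Acetyl-CoA carboxylase (ACC), which makes malonyl-CoA for fatty acid synthesis, had signals of 208, 213 and 188 at 30d, against 438, 338 and 387 at 3d and 551, 240 and 324 at 60d. SREBP, a transcription factor that activates fatty acid synthesis genes, measured 207, 226 and 200 at 30d, against 540, 270 and 349 at 3d and 415, 281 and 306 at 60d. The contrasts were -0.85 ± 0.23 (SE) for ACC and -0.73 ± 0.21 (SE) for SREBP, with limma adjusted p of 0.0619 and 0.0659. The secreted phospholipase sPLA2 (contrast -0.81) and the peroxisomal beta-oxidation enzyme Mfe2 (-0.76) had the same shape. Desat1, a fatty acid desaturase, was a trough by a narrow gap of 0.02. In the list of lipid storage and synthesis genes 3 of 16 were troughs (18.8%, beside 5.65% of all genes). Peaks numbered 2 (mag, a lipase, and Agpat1, 12.5%, beside 7.86%), and the median contrast was -0.07.

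Cytochrome P450 enzymes, which oxidise xenobiotics and hormones, held both kinds. Among 85 measured, 8 were troughs (9.41%, beside 5.65% of all genes) and 6 were peaks (7.06%, beside 7.86%), and the median contrast of the list was 0.13 beside 0.10 for all genes. As among all genes, troughs lay at higher levels than peaks, with 7 of the 8 over the 60th percentile. Cyp6d5 had signals of 346, 281 and 279 at 30d, against 715, 693 and 776 at 3d and 893, 379 and 505 at 60d, a contrast of -1.08 ± 0.23 (SE). Cyp305a1 measured 78.4, 84.6 and 69.3 at 30d, against 139, 189 and 246 at 3d and 222, 93.3 and 115 at 60d. None of the 6 peaks was over the 60th percentile, Cyp316a1 among them with signals of 9.22 to 15.3 at 30d, against 3.02 to 7.54 at 3d and 5.14 to 6.76 at 60d.

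Other bright troughs code for membrane and extracellular proteins. The heat-activated TRP channel pyx had signals of 80.8, 75.4 and 60.9 at 30d, against 125, 139 and 147 at 3d and 267, 124 and 156 at 60d. Its gap was the widest of the 12 bright troughs plotted, 0.61 log2 units between the highest 30d array and the lowest other array. The serpin Spn43Ab measured 447, 425 and 372 at 30d, against 813, 870 and 833 at 3d and 1080, 574 and 661 at 60d, a contrast of -0.93 ± 0.19 (SE). List, a transporter of the neurotransmitter transporter family, measured 74.3, 78.8 and 71.2 at 30d, against 132, 109 and 150 at 3d and 164, 119 and 151 at 60d. The collagen-binding matrix protein SPARC had signals of 189 to 210 at 30d, against 300 to 373 at 3d and 258 to 479 at 60d. For List and SPARC the mean log2 levels of 60d (7.18 and 8.43) lay close to those of 3d (7.02 and 8.42), so that 30d alone stood low.

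**Figure D2:**
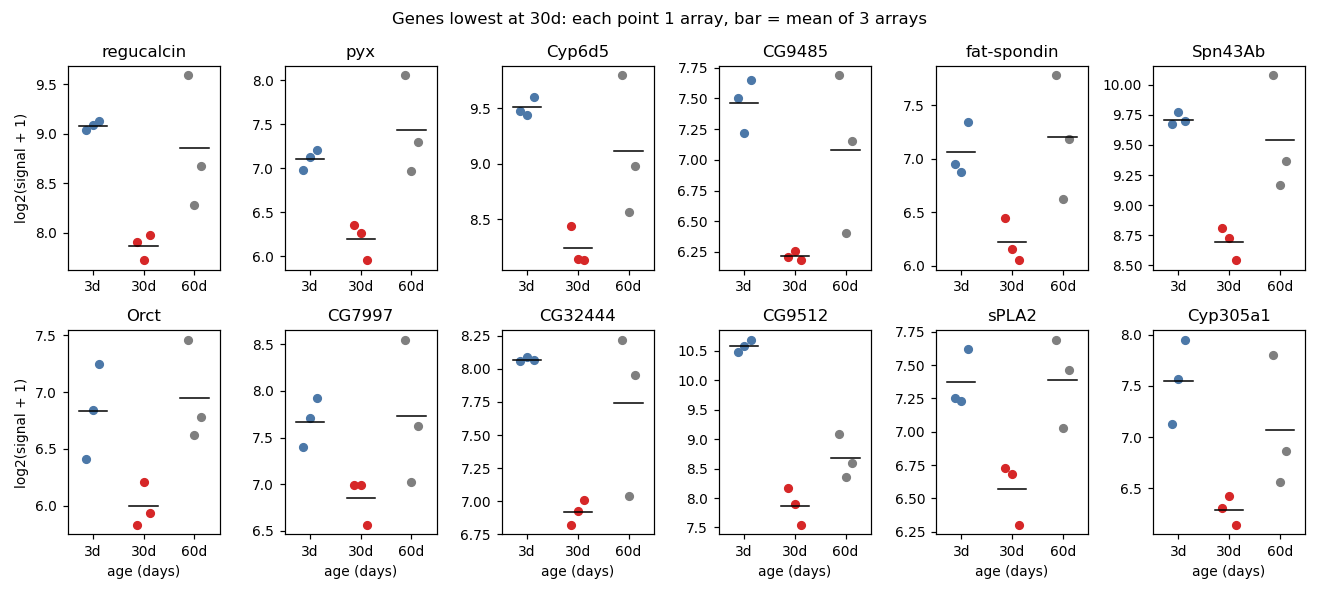
Signals on a log2(signal + 1) scale (y axis) of the 12 bright trough genes with the largest difference to the nearer age, with age on the x axis; each point is 1 array and each bar the mean of 3 arrays. All red 30d points lie below all points of 3d and 60d, and the 60d points spread most.

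Of those 12 troughs, 11 were called lower in the contrast when the 40th percentile filter was used, and CG7997, an alpha-galactosidase, was not (limma adjusted p of 0.0510). The 12 were picked by their differences in these same arrays, so this count describes them and supports nothing further. All 12 stayed troughs after quantile normalization. Their differences to the nearer age were between -0.98 for regucalcin and -0.79 for Cyp305a1.

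**Figure D3:**
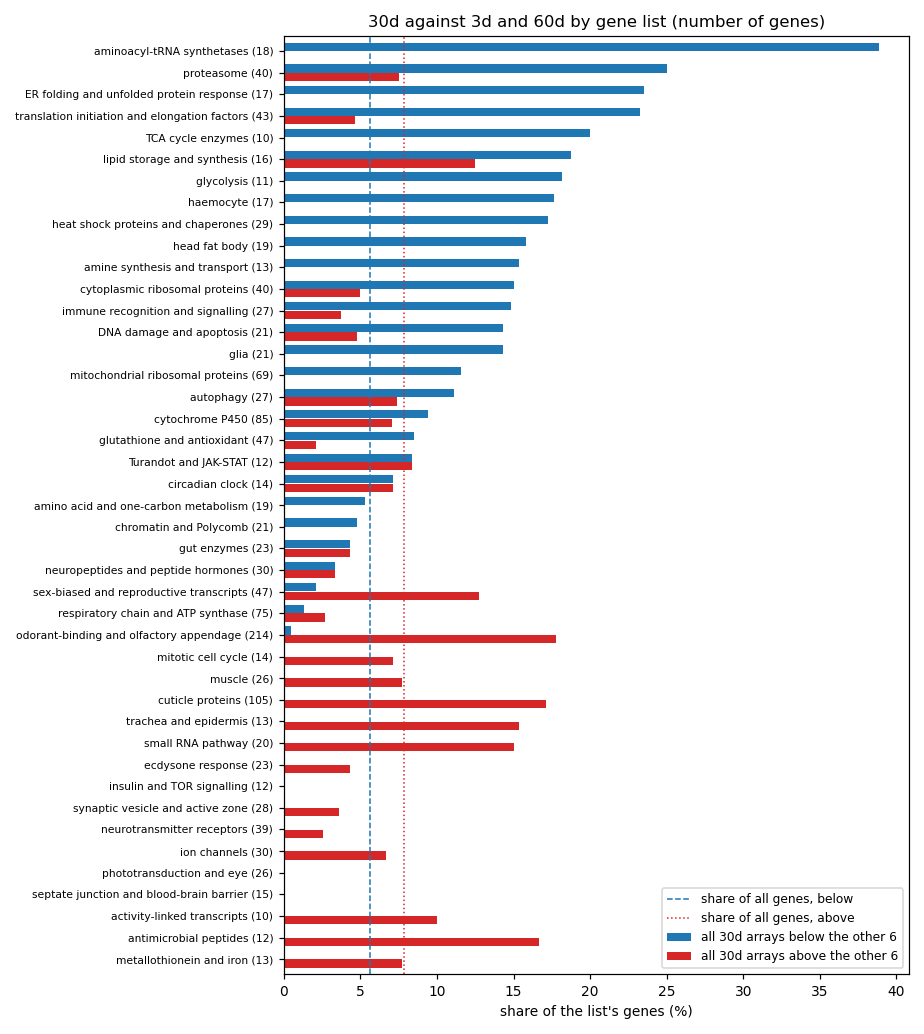
Share of the genes of each of 43 lists (number of genes in brackets) whose 30d arrays lay all below (blue) or all above (red) the other 6 arrays; the dashed and dotted lines are the shares over all genes, 5.65% and 7.86%. Aminoacyl-tRNA synthetases have the largest trough share (38.9%), and the olfactory and cuticle lists have peak shares of 17.8% and 17.1%.

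Lists of protein synthesis genes had larger trough shares than all genes did. Aminoacyl-tRNA synthetases, which load amino acids onto tRNAs, were troughs in 7 of 18 genes (38.9%, beside 5.65% of all genes) and peaks in 0. The median contrast of the list was -0.34, beside 0.10 for all genes. GluProRS, the fused glutamyl-prolyl enzyme, had signals of 51.5, 47.7 and 47.6 at 30d, against 89.4, 58.8 and 89.4 at 3d and 92.9, 65.3 and 74.8 at 60d. TyrRS measured 57.2, 57.2 and 56.8 at 30d, against 93, 91.8 and 111 at 3d and 77.6, 68.5 and 83.5 at 60d. The others were IleRS, HisRS, ThrRS, ValRS and beta-PheRS, with contrasts between -0.39 and -0.57. None of the 18 was called over all probe sets. Of the 16 that passed the 40th percentile filter 6 were called lower, beside 8.25% of all probe sets that passed it. After quantile normalization 6 of the 18 were troughs.

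Translation factors showed the same shape, mainly through eIF3, the complex that brings mRNA to the small ribosomal subunit. In the list of 43 initiation and elongation factors 10 were troughs (23.3%) and 2 were peaks, with a median contrast of -0.24. Of its 16 eIF3 genes 7 were troughs, a subset picked after its values were seen: eIF3a, eIF3d1, eIF3e, eIF3g1, eIF3k, eIF3l and eIF3m. The signal of eIF3l was 470, 445 and 498 at 30d, against 814, 751 and 817 at 3d and 696, 571 and 601 at 60d. For eIF3d1 it was 290, 267 and 286 at 30d, against 572, 387 and 434 at 3d and 497, 341 and 394 at 60d. The contrasts were -0.58 ± 0.12 (SE) for eIF3l and -0.62 ± 0.16 (SE) for eIF3d1, with limma adjusted p of 0.0615 and 0.0619 over all probe sets. The 2 peaks were variants of the cap-binding protein, eIF4E3 and eIF4E5.

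Ribosomal proteins form the ribosome's subunits in the cytoplasm and in mitochondria. Of 40 cytoplasmic ones 6 were troughs (15%, beside 5.65% of all genes: RpL3, RpL10Ab, RpL28, RpL32, RpL34a and RpLP0) and the paralogues RpS19b and RpS28-like were peaks. RpL10Ab stood out, with signals of 1020, 976 and 988 at 30d, against 1460, 1340 and 1410 at 3d and 1780, 1230 and 1380 at 60d. The list's median contrast was -0.12 with deposited values and 0.01 after quantile normalization. Troughs then numbered 3 (7.5%), close to the 6.3% of all genes. Of the list's 38 genes that passed the 40th percentile filter 1 was called lower, beside 8.25% of all probe sets that passed it. Of 69 mitochondrial ribosomal proteins 8 were troughs (11.6%) and 0 were peaks, with a median contrast of -0.32. Of the 58 with a mean over the 60th percentile 6 were troughs, beside 9.17% of all such genes. After quantile normalization 5 of the 69 were troughs (7.25%), close to the 6.3% of all genes. In mRpL28 the signal was 66.6, 65.4 and 61.8 at 30d, against 119, 121 and 137 at 3d and 95.9, 73.1 and 79.3 at 60d, so the 60d arrays lay closer to 30d.

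The proteasome, which degrades ubiquitin-tagged proteins, gave 10 troughs in 40 genes (25.0%). They lay in the base and lid of its regulatory particle (Rpt4, Rpt5, Rpn1, Rpn3, Rpn6, Rpn7, Rpn8) and in its catalytic core (Prosalpha2, Prosalpha7, Prosbeta2). Rpn3 had signals of 112, 109 and 109 at 30d, against 140, 185 and 192 at 3d and 196, 138 and 148 at 60d. Rpt4, one of the ATPases, measured 105, 117 and 126 at 30d, against 167, 182 and 195 at 3d and 210, 131 and 168 at 60d. The contrasts of the 10 were between -0.32 and -0.58, and none was called over all probe sets. Of the list's 29 genes over the filter 3 were called lower, beside 8.25% of all probe sets over it. The 3 peaks in the list were the dim core paralogues Prosalpha4T1, Prosalpha4T2 and Prosbeta4R1, with mean log2 levels of at most 4.15. After quantile normalization the list held 8 troughs and 1 peak.

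Protein quality control beside the proteasome leaned the same way. Of 29 heat shock proteins and chaperones 5 were troughs (17.2%, beside 5.65% of all genes) and 0 were peaks. The troughs were the Hsp40 cochaperones DnaJ-1 and Droj2, the constitutive Hsc70-4, Hsp110 and the mitochondrial chaperonin Hsp60A. All 5 were among the list's 22 genes over the 60th percentile, a level at which 9.17% of all genes were troughs. DnaJ-1 had signals of 232, 299 and 324 at 30d, against 401, 386 and 571 at 3d and 667, 421 and 640 at 60d, a contrast of -0.83 ± 0.20 (SE). Hsc70-4 measured 898, 980 and 1030 at 30d, against 1090, 1530 and 1530 at 3d and 1580, 1250 and 1220 at 60d. In the endoplasmic reticulum list 4 of 17 were troughs (23.5%), all among its 12 genes over the 60th percentile. They were the disulfide isomerase ERp60, Herp, the translocon subunit Sec61beta and the stress-response factor crc. TER94, the p97 ATPase that extracts ubiquitinated proteins, and ref(2)P, the fly p62 adaptor of selective autophagy, were troughs as well, with contrasts of -0.67 ± 0.18 and -0.58 ± 0.17 (SE).

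**Figure D4:**
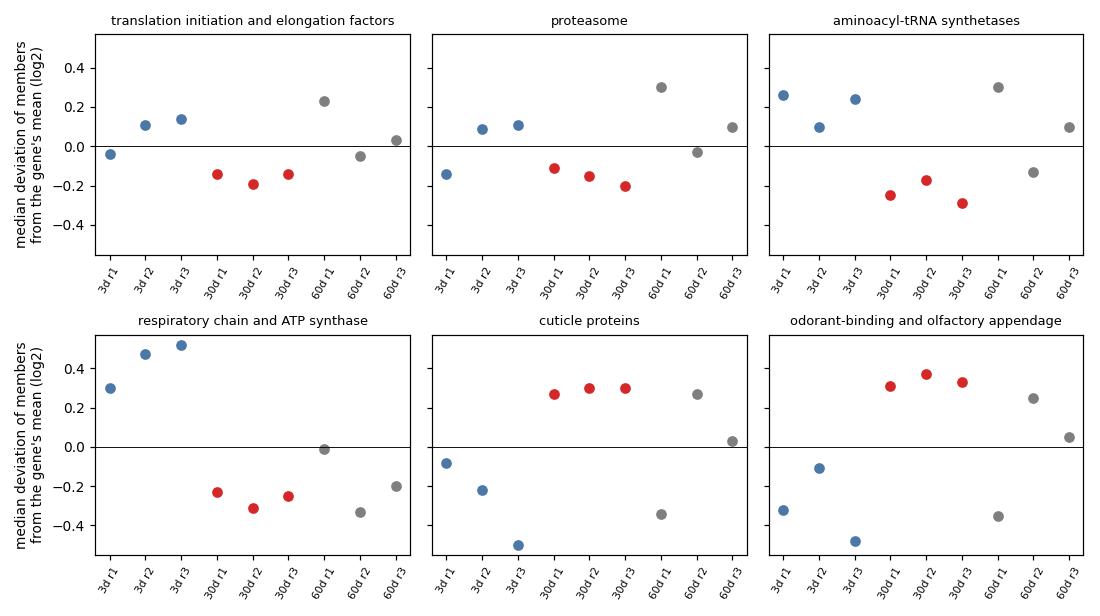
Median deviation of a list's genes from each gene's own mean over 9 arrays (log2, y axis) on every array (x axis; blue 3d, red 30d, grey 60d; r1 to r3 are replicates) for 6 lists. Translation factors lay at -0.14 to -0.19 on the 30d arrays, with the second 60d array nearest among the 60d arrays at -0.05, whereas respiratory chain genes were low at both 30d and 60d.

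The per-array medians of these lists show how far 30d stood from each other array. For translation factors the median deviation was -0.14, -0.19 and -0.14 at 30d, against -0.04, 0.11 and 0.14 at 3d and 0.23, -0.05 and 0.03 at 60d. For aminoacyl-tRNA synthetases it was -0.25, -0.17 and -0.29 at 30d, against 0.26, 0.10 and 0.24 at 3d and 0.30, -0.13 and 0.10 at 60d. For the proteasome it was -0.11, -0.15 and -0.20 at 30d, against -0.14, 0.09 and 0.11 at 3d and 0.30, -0.03 and 0.10 at 60d. The first 2 lists did not overlap between 30d and the other arrays, whereas the proteasome list overlapped through the first 3d array, the one with the high GAPDH ratio. Without that array 16 proteasome genes and 15 translation factors were troughs, against 8.73% of all genes. Without the second 60d array the counts were 15 and 16, with 9 aminoacyl-tRNA synthetases, but 13.3% of all genes were then troughs.

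In mitochondrial energy genes a low contrast came with few troughs. The respiratory chain and ATP synthase list, whose products make ATP from reduced cofactors, had a median contrast of -0.42, yet only 1 of 75 genes, ND-PDSW of complex I, was a trough. Its signals were 411, 395 and 411 at 30d, against 587, 739 and 767 at 3d and 544, 417 and 453 at 60d. Over the list the median difference was -0.73 between 30d and 3d and -0.10 between 30d and 60d. These genes therefore stood low at both later ages. Of the 64 that passed the filter 32 were called lower in the contrast, beside 8.25% of all probe sets that passed it. The second 60d array, at a median deviation of -0.33, lay below the 30d arrays at -0.23, -0.31 and -0.25, and without it 29 of the 75 genes (38.7%) were troughs. The 2 peaks in the list were the dim paralogues ATPsynGL and ATPsynbetaL.

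Enzymes of sugar breakdown gave 4 troughs. In glycolysis Pgi and Pfk were troughs among 11 genes (18.2%, beside 5.65% of all genes), Pfk by a gap of 0.04. The median difference of the glycolysis list was -0.60 between 30d and 3d and -0.36 between 30d and 60d. Pgi, which turns glucose 6-phosphate into fructose 6-phosphate, had signals of 470, 441 and 473 at 30d, against 798, 697 and 916 at 3d and 922, 568 and 627 at 60d. Its contrast was -0.69 ± 0.17 (SE) with a limma adjusted p of 0.0618. In the list of TCA cycle enzymes 2 of 10 genes were troughs (20%, beside 5.65% of all genes). They were Idh (isocitrate dehydrogenase) and, by a gap of 0.04, muc, the acetyltransferase subunit of pyruvate dehydrogenase. The list's median difference was -0.68 between 30d and 3d and -0.09 between 30d and 60d, beside -0.73 and -0.10 in the respiratory chain list. Got2, the mitochondrial aspartate aminotransferase, measured 450, 486 and 456 at 30d, against 723, 851 and 921 at 3d and 1030, 593 and 737 at 60d.

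Immune genes were mixed. Of 27 recognition and signalling genes 4 were troughs (14.8%, beside 5.65% of all genes) and 1 was a peak (3.7%, beside 7.86%). The list's median contrast was -0.04. The troughs were nec, a serpin that restrains Toll activation, Rel, the NF-kappaB factor of the Imd pathway, the kinase subunit key and the receptor PGRP-LE. The signal of nec was 74.7, 80.7 and 70.7 at 30d, against 146, 95.5 and 139 at 3d and 263, 135 and 179 at 60d. Rel measured 91.2, 98.6 and 92.6 at 30d, against 136, 111 and 110 at 3d and 196, 130 and 146 at 60d. In nec and Rel, as in every trough, the 60d arrays lay above the 30d arrays by the rule that picked them, so this order adds nothing. The bomanin peptide gene BomBc2 had the same order of 30d and 60d arrays. The peak was Tl, the Toll receptor, by a gap of 0.03. Antimicrobial peptides had 2 dim peaks, Drsl1 and Drsl2, and 0 troughs in 12 genes (16.7% peaks, beside 7.86% of all genes). After quantile normalization 0 of the 12 were peaks.

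Markers of cells that can adhere to the brain were counted in the same way. Troughs made up 17.6% of the haemocyte and 15.8% of the head fat body list, beside 5.65% of all genes. The muscle list held 2 peaks and 0 troughs in 26 genes, a peak share of 7.69% that is close to the 7.86% of all genes. Among 17 haemocyte markers 3 were troughs (NimC1, a phagocytosis receptor, Sr-CI and Ppn) and 0 were peaks. NimC1 had signals of 53.9, 56.2 and 61.1 at 30d, against 91.7, 74.8 and 85.3 at 3d and 333, 116 and 149 at 60d. The summed signal of the haemocyte list was 2378 to 2560 at 30d, against 2956 to 3752 at 3d and 2763 to 3882 at 60d, without overlap. Among 19 head fat body markers 3 were troughs (regucalcin, the lipoprotein apolpp and its loading protein Mtp), and the summed signal was 6355 to 7996 at 30d, against 7444 to 8976 at 3d and 6796 to 16450 at 60d, with overlap. No member of these lists was at 0 on any array, and 8 haemocyte and 13 fat body markers were over the 60th percentile. Of these brighter markers 2 and 3 were troughs, beside 9.17% of all such genes. Whether the share of these cells played a part in the troughs above was not tested.

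Glial and amine genes contributed 3 troughs among 21 glial markers (14.3%) and 2 among 13 amine genes (15.4%), beside 5.65% of all genes. Ebony (e) was counted in both lists. All these troughs were over the 60th percentile, as were 20 of the glial and 9 of the amine genes. At that level 9.17% of all genes were troughs. The engulfment receptor drpr had signals of 406, 441 and 348 at 30d, against 646, 543 and 654 at 3d and 631, 462 and 499 at 60d. Moody, a receptor of barrier glia, measured 212, 198 and 190 at 30d, against 230, 231 and 293 at 3d and 370, 281 and 309 at 60d. For speck, an arylalkylamine N-acetyltransferase, the signal was 188, 168 and 197 at 30d, against 409, 547 and 554 at 3d and 334, 211 and 244 at 60d. In ebony, which conjugates beta-alanine to amines, the gap was 0.01: 264, 242 and 262 at 30d, against 1190, 663 and 828 at 3d and 290, 266 and 346 at 60d. By their means, 60d lay between 30d and 3d in drpr and above 3d in moody, whereas ebony stood low at both later ages. The summed signal of the glial list was 11810 to 12780 at 30d, against 14880 to 17270 at 3d and 12330 to 14590 at 60d.

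Neuronal lists held few members. Synaptic vesicle and active zone genes had 1 peak (Sytalpha) and 0 troughs in 28, neurotransmitter receptors 1 peak (mGluR) in 39, ion channels 2 peaks (nan and Shaw) in 30, and phototransduction genes neither in 26. Neuropeptide genes had the peak Eh, coding for eclosion hormone, and the trough Akh, coding for adipokinetic hormone, in 30. With deposited values the shares of peaks and of troughs in each of these lists were below the 7.86% and 5.65% of all genes. After quantile normalization synaptic genes had 3 peaks (10.7%) and ion channels 3 (10%), beside 5.88% of all genes, and neuropeptide genes 2 troughs (6.67%, beside 6.3%). In the clock list the transcription factor Clk was a peak and the light receptor cry a trough. Clk measured 314, 317 and 328 at 30d, against 148, 210 and 190 at 3d and 233, 271 and 253 at 60d, while cry measured 55.2, 83.4 and 80.2 at 30d, against 123, 139 and 169 at 3d and 130, 84.3 and 88.0 at 60d. The time of day of dissection is not given in the sources used here.

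Peaks are called bright here when their 30d mean, the highest of the 3 means, was over the 60th percentile. This held for 295 peak genes, while 231 had a mean over all 9 arrays above it. Among these bright peak genes Cpr72Ec stood far apart. This gene, of the CPR family of cuticle proteins, had signals of 637, 623 and 672 at 30d, against 156, 282 and 314 at 3d and 123, 251 and 308 at 60d. The lowest 30d array lay 0.99 log2 units above the highest other array. Its contrast was 1.51 ± 0.29 (SE) with a limma adjusted p of 0.0615 over all probe sets and 0.0335 over those past the 40th percentile filter. Quantile normalization gave a contrast of 1.61.

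The next peaks were smaller. CG32006, on chromosome 4, had signals of 249, 250 and 230 at 30d, against 129, 145 and 129 at 3d and 121, 179 and 141 at 60d, a contrast of 0.80 ± 0.14 (SE). Sld5, a subunit of the GINS replication complex, measured 134, 141 and 136 at 30d, against 72.7, 91.7 and 70.6 at 3d and 60.6, 111 and 87.9 at 60d. The mitotic regulator fzy, the fly Cdc20, measured 385, 389 and 404 at 30d, against 340, 248 and 229 at 3d and 224, 283 and 280 at 60d. In the mitotic list fzy was the only peak in 14 genes. The salivary glue gene Sgs4 and the ciliary transport gene nompB followed, with contrasts of 0.83 ± 0.18 and 0.67 ± 0.19 (SE).

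**Figure D5:**
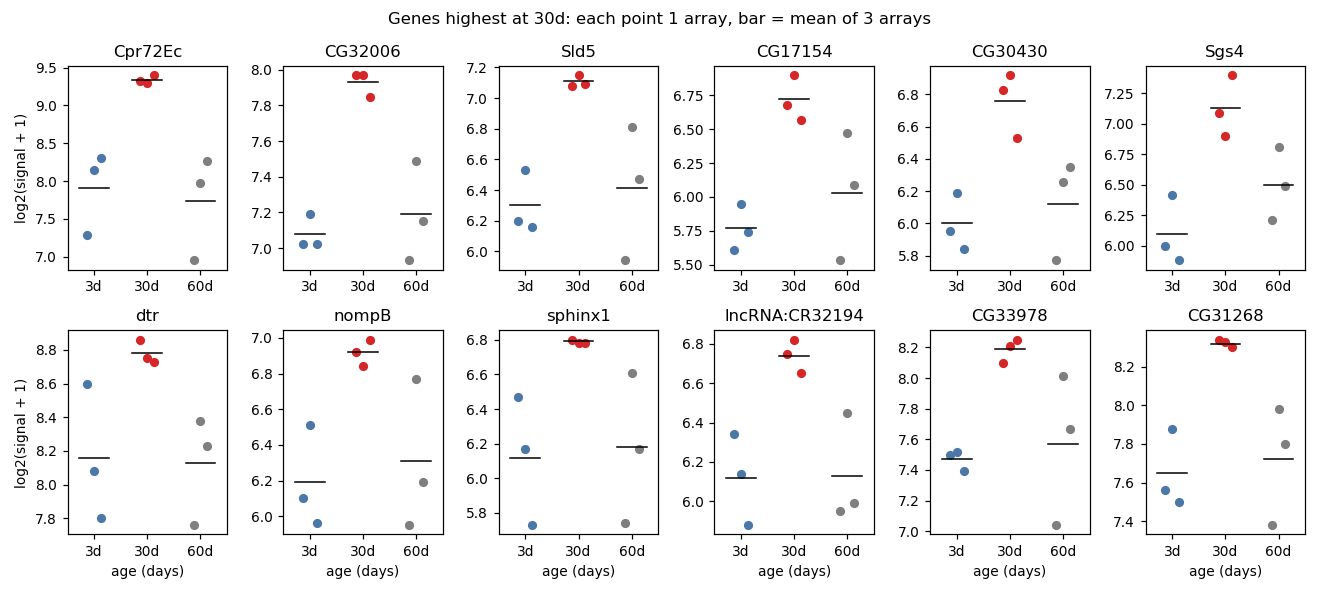
Signals on a log2(signal + 1) scale (y axis) of the 12 bright peak genes with the largest difference to the nearer age, with age on the x axis; each point is 1 array and each bar the mean of 3 arrays. All red 30d points lie above all points of 3d and 60d; in Cpr72Ec the gap is 0.99, and in nompB and CG33978 it is 0.07 and 0.09.

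All 12 of the largest bright peaks stayed peaks after quantile normalization, and all 12 were called higher with the 40th percentile filter. They were picked by their differences in these same arrays, so these counts describe them and support nothing further. In several, such as CG17154 (mean log2 levels of 5.77 at 3d, 6.72 at 30d and 6.03 at 60d), only the 30d mean was over the 60th percentile. Apart from Cpr72Ec, the 12 differed from the nearer age by 0.60 to 0.74 log2 units.

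A pair of large families supplied many peaks, most of them dim. Odorant, gustatory and ionotropic receptors with odorant-binding proteins gave 38 peaks in 214 genes (17.8%, beside 7.86% of all genes) and 1 trough, Or63a. In this list 155 genes had a mean under the 40th percentile. Among the brighter members Obp57e, an odorant-binding protein, had signals of 340, 368 and 362 at 30d, against 190, 207 and 166 at 3d and 234, 293 and 309 at 60d. Ir87a, an ionotropic receptor, measured 122, 119 and 119 at 30d, against 61.9, 80.3 and 54.6 at 3d and 70.5, 106 and 99.2 at 60d. Or42a measured 59.6, 59.3 and 55.9 at 30d, against 35.0, 34.9 and 28.4 at 3d and 28.3, 45.4 and 38.2 at 60d. After quantile normalization 21 genes of the list were peaks (9.81%, beside 5.88% of all genes).

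Cuticle proteins gave 18 peaks in 105 genes (17.1%) and 0 troughs, and 63 of them had a mean under the 40th percentile. The peaks included CPR genes (Cpr72Ec, Cpr11B, Cpr65Az, Cpr49Ad) and Tweedle genes (TwdlS, TwdlB, TwdlV). Cpr11B measured 165, 146 and 171 at 30d, against 84.7, 118 and 73.0 at 3d and 116, 138 and 141 at 60d. TwdlV measured 40.7, 36.8 and 37.1 at 30d, against 27.1, 26.3 and 22.9 at 3d and 25.0, 26.1 and 27.9 at 60d. The summed signal of the list was 8596 to 8921 at 30d, against 5460 to 7075 at 3d and 5723 to 8443 at 60d. After quantile normalization 11 were peaks (10.5%). Markers of trachea and epidermis, the tissues that make cuticle, had contrasts above 0 in 13 of 13 genes. Their median contrast was 0.34 (0.17 after quantile normalization), and 8 of them had a mean under the 40th percentile. Among all genes the median contrast was 0.44 at mean log2 levels under 4, 0.36 between 4 and 5 and 0.24 between 5 and 6. After quantile normalization these medians were 0.04, 0.05 and 0.03. Of these 13 genes, kkv, a chitin synthase, and btl, the tracheal FGF receptor, were peaks, none was a trough, and 0 were peaks after quantile normalization. Their summed signal was 2110 to 2147 at 30d, against 1810 to 1975 at 3d and 1874 to 2132 at 60d, no marker was at 0 on any array, and their part in the cuticle peaks was not tested. Without the second 60d array 45 cuticle genes (42.9%) and 93 olfactory genes (43.5%) were peaks, when 20.8% of all genes were.

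Reproductive transcripts had a similar mix. Of 47 sex-biased genes 6 were peaks (12.8%, beside 7.86% of all genes), namely Acp26Aa, Sfp33A3, Sfp53D, Acp53C14b, Mst84Da and Mst84Db. Mst85C was a trough. Acp26Aa, an ejaculatory peptide gene, measured 133, 133 and 129 at 30d, against 63.6, 71.4 and 60.3 at 3d and 76.5, 125 and 103 at 60d. After quantile normalization the list again held 6 peaks, and 0 troughs. The small RNA list, whose products silence transposons mainly in the germ line, had 3 peaks in 20 genes (15%, beside 7.86% of all genes). AGO3 measured 162, 164 and 161 at 30d, against 94.3, 83.0 and 77.1 at 3d and 100, 154 and 114 at 60d, and squ and krimp were the others. After quantile normalization the small RNA list held 2 peaks (10%, beside 5.88% of all genes) and 1 trough, and krimp was no longer a peak. The sex of the flies is not given in the sources used here.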

How the data were processed

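RNA of dissected brains at 3d, 30d and 60d was measured on 9 arrays. The authors deposited 1 linear signal intensity per probe set and array for 18952 probe sets. GCRMA and MAS5 are named in the submitters' processing notes, without a role or version. Every array had a trimmed mean of 150, and arrays were not quantile normalized. Names came from the platform annotation: 13647 probe sets had 1 gene symbol, 402 several and 4903 none. Names and chromosomes were updated through a gene table of the Release 6 assembly; no genome was used.

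Values were taken as log2(signal + 1), with no filter and no further scaling. Group means of the 3 ages were fitted with limma 3.58.1 in R 4.3.3 (6 residual and 4.36 prior degrees of freedom), two-sided, with Benjamini-Hochberg adjustment over all 13647 probe sets and a threshold of 0.05. The procedure was tested on simulated data. Per gene, the probe set with the highest mean was taken, and probe sets ending in _s_at can match several transcripts. The number of arrays limits the precision. Tables and figures were made with Python 3.11.15, pandas 2.3.3 and matplotlib 3.10.9.

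The members and the 43 gene lists (1386 genes matched, 158 names not) were chosen with earlier results of these data known, and 23 wrong synonym matches were dropped after the files were read. The rule for named genes was the 12 largest differences to the nearer age, among genes past the contrast and both pairwise tests, not overlapping and over the 60th percentile. It named 0 peaks and 0 troughs. The genes named were therefore taken without the test conditions, and from each list up to 12 members per direction, a choice made after values were seen. Alternatives were quantile normalization, median centring, an offset of 16, filters at the 40th and 60th percentiles, 1 probe set per gene, the replicate number as a block, array weights, the GAPDH ratio as covariate, pairwise fits, and arrays left out. Quantile normalization together with the 40th percentile filter was added after seeing the data.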

Additional observations from a re-analysis of the deposited data

How the results depend on the processing

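The contrast called 0 probe sets higher and 2 lower. It called 0 and 3 after quantile normalization, 0 and 2 after median centring and 0 and 2 with 1 probe set per gene. The counts became 980 and 822 with an offset of 16, 688 and 748 with the 40th percentile filter, 467 and 806 with the 60th, 3352 and 1921 with array weights, 738 and 666 with the GAPDH ratio as covariate, 1260 and 1004 without the first arrays of 3d and 60d, and 767 and 866 with quantile normalization and the 40th percentile filter together. Past both pairwise tests, 1 stood higher and 1 lower. These counts were 0 and 3 after quantile normalization or median centring, 1 and 9 with the offset of 16, 0 and 6 with the 40th and 0 and 8 with the 60th percentile filter, 0 and 1 with array weights, 0 and 2 with the covariate, 0 and 0 in separate pairwise fits, 2 and 7 without both first arrays, and 3 and 12 with quantile normalization and filter together.

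With replicate number as a block the replicate block fit called 0 higher and 0 lower in the contrast, and 0 and 0 past both pairwise tests. Arrays with the same number did not deviate together: their correlations ran from -0.226 to 0.135, so the numbers were not taken to pair the arrays.

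Leaving out 1 array gave 0 to 2401 higher and 0 to 1321 lower contrast calls, 0 to 24 and 0 to 19 past both tests, 1137 to 2899 peaks and 708 to 1646 troughs, the largest each time without the second 60d array. Peaks numbered 1117, against 599 with the 40th and 323 with the 60th percentile filter and 691 with quantile normalization and filter. Troughs numbered 692, and 1118 without both first arrays. Without the first 30d array 1711 were peaks, and without the first 3d array 1085 were troughs. The offset does not alter array order. The direction turned in 3 genes, none of them called: the contrast was -0.075 for VGlut (0.172 with deposited values) and -0.013 for Jon25Biii, a dim serine protease peak (0.370), after quantile normalization, and -0.005 for elav (0.089) after median centring. No other named gene changed direction in the settings run. The replicate block ended the calls of both genes; the cause was not tested.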

Other observations

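The small chromosome 4, which is largely heterochromatic, had 11 peak genes among 65 (16.9%) and 2 troughs, beside 7.86% peaks and 5.65% troughs over all genes, although its genes were bright, with a median level of 8.82. Among its 53 genes over the 60th percentile 7 were peaks (13.2%, beside 4.39%). PlexB, a receptor of axon guidance, averaged 9.95 at 30d, against 9.41 at 3d and 9.70 at 60d on the log2 scale, and Ekar, a glutamate receptor subunit, stood above 9.88 (3d) and 9.73 (60d) by a contrast of 0.19. Kif3C, a kinesin, averaged 8.16 at 30d, against 7.37 at 3d and 7.63 at 60d. The median contrast of the chromosome was -0.02, below the 0.10 of all genes. After quantile normalization 10 were peaks (15.4%, beside 5.88%), after median centring 6 (9.23%, beside 6.05%), and without the second 60d array 13 (20%, beside 20.8%). The larger share was thus not there without that array.

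Dome, the receptor of the JAK-STAT pathway, was a trough with signals of 35.6, 36.7 and 40.9 at 30d, against 80.4, 71.9 and 74.2 at 3d and 63.5, 49.3 and 51.7 at 60d, with a contrast of -0.75 ± 0.13 (SE). Of 47 glutathione and antioxidant genes 4 were troughs (8.51%, beside 5.65% of all genes) and 1 was a peak (2.13%, beside 7.86%). The troughs were the glutathione transferases GstD3, GstE2, GstE3 and GstE12, and the peak was GstE7. All 4 troughs were among the list's 32 genes over the 60th percentile, a level at which 9.17% of all genes were troughs. GstE2 measured 497, 499 and 510 at 30d, against 610, 890 and 820 at 3d and 815, 594 and 618 at 60d. Insulin and TOR signalling genes gave neither peak nor trough in 12, and septate junction genes neither in 15.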
